A study of Homo sapiens with 6 samples.

Results

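Start sites of long non-coding RNA (lncRNA) genes that carried H3K27ac away from protein-coding start sites were examined in SU-CCS-1, an established line of human clear cell sarcoma (CCS) whose defining lesion is the fusion EWSR1::ATF1 (EA1). A peak was selected when it measured at most 5000 bases, contained the start of at least 1 GENCODE version 44 lncRNA transcript and lay more than 3000 bases from every transcript start of a protein-coding gene. These criteria were met by 932 of the 30784 deposited H3K27ac peaks (3.03%), termed lncRNA-start peaks, which covered the starts of 1010 lncRNA genes. The data came from 3 chromatin immunoprecipitation sequencing (ChIP-seq) replicates with an anti-H3K27ac antibody and 3 inputs, which are chromatin sequenced without immunoprecipitation. All 6 samples were the same untreated line with the EWSR1::ATF1 genotype, so no other cell type, fusion-negative control or treatment was available for comparison. The authors deposited 1 merged list of positions in hg38 with no score, read count or per-replicate value. The depth behind each peak and the agreement between replicates are therefore unknown, and each peak is either listed or not.

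A lncRNA gene makes a transcript that is not translated into a long protein, and its promoter can be marked by acetylation of lysine 27 of histone H3 (H3K27ac) as coding promoters are. Some lncRNA genes act as hosts, whose introns or exons are processed into small nucleolar RNAs (snoRNAs) or microRNAs. Others start at or beside enhancers, or descend from pseudogenes, which are disabled copies of coding genes. H3K27ac marks active promoters and enhancers alike and does not measure the transcript.

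Because the ATF1 part of the fusion keeps a DNA-binding domain of the ATF/CREB family, start sites were searched for its palindromic site TGACGTCA, the cyclic AMP response element. The 250 bases before and 50 bases after each start were read on the strand of the gene in hg38. The following 5 windows belong to the widest lncRNA-start peaks with that site other than PVT1 and show how the site stands beside the start. Capitals mark TGACGTCA. The transcript begins at base 251 of each line, written 5′ to 3′.
ENSG00000291176, chr2:96010276-96010575, plus strand: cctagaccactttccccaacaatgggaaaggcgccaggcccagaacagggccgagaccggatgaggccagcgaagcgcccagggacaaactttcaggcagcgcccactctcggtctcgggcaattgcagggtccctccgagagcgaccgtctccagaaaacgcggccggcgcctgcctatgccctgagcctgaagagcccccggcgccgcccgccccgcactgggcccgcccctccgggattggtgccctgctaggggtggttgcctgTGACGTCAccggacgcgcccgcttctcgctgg
STAG3L5P-PVRIG2P-PILRB, chr7:100335864-100336163, plus strand: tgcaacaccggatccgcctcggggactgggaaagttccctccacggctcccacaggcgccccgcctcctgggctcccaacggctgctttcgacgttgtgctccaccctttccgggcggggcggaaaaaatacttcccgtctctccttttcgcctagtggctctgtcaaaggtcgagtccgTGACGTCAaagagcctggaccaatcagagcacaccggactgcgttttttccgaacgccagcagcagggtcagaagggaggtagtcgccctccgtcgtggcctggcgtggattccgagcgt
HCG14, chr6:28896280-28896579, plus strand: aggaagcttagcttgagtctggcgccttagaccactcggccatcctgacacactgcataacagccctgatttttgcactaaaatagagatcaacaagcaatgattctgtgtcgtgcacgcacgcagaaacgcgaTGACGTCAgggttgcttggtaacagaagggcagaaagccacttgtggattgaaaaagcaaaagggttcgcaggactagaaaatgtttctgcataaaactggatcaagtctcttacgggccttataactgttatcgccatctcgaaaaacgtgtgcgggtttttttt
ENSG00000289280, chr10:124916660-124916959, minus strand: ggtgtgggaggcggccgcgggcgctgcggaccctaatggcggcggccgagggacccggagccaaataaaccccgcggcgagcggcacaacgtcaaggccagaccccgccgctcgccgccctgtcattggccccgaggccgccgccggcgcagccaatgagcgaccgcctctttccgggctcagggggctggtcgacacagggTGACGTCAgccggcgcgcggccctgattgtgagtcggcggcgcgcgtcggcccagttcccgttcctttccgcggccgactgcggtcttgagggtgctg
ENSG00000291202, chr4:119454589-119454888, minus strand: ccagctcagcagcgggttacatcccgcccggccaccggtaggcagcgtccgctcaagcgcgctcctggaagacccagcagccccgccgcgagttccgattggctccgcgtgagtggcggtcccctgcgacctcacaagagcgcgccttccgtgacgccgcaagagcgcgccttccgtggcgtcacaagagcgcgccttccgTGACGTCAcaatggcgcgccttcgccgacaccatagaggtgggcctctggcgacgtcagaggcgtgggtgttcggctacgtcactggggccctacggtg
The site lay upstream of the start in 4 of these 5 windows, and at ENSG00000291176 it began 18 bases after it. STAG3L5P-PVRIG2P-PILRB is a readthrough locus of pseudogenes that runs into PILRB, and 144 annotated lncRNA transcripts started within its peak, the most of any lncRNA-start peak.

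A further pair of windows shows starts from the gene lists described below, both from peaks over 4 kb wide. CYTOR, a cytoplasmic lncRNA studied in several cancers, held the AP1 site TGAGTCA, and SNHG26, a snoRNA host, held none of TGACGTCA, TGANNTCA or TGAGTCA. Capitals mark TGAGTCA.
CYTOR, chr2:87455256-87455555, plus strand: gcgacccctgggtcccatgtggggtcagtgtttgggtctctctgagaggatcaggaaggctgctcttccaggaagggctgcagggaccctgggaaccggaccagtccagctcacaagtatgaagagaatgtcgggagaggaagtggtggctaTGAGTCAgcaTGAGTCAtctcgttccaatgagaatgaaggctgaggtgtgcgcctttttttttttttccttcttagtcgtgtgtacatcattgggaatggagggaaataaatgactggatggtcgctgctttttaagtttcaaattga
SNHG26, chr7:22853909-22854208, plus strand: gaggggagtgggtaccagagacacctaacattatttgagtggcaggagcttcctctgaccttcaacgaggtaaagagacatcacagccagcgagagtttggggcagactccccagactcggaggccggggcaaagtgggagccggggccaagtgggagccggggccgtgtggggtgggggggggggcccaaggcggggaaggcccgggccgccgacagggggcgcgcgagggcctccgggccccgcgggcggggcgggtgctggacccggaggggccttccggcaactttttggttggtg
The 2 AP1 sites of CYTOR began 98 and 88 bases before the start, and the window was 50% G or C. The SNHG26 window was 69.3% G or C.

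The label of lncRNA starts was checked against all other gene types. Of the 932 peaks, 134 also contained the start of a gene that was neither lncRNA nor protein-coding, most often a transcribed unprocessed pseudogene (69 peaks), so they were free of coding starts but did not hold lncRNA starts alone. A microRNA precursor started in 13 peaks and a snoRNA in 7. A single lncRNA gene started in 800 peaks, 2 genes in 121, 3 in 9 and 4 in 2. The 2 peaks with 4 genes were those of BMS1P4, BMS1P4-AGAP5, GLUD1P3 and ENSG00000290737 on chromosome 10 and of MIRLET7BHG, PRR34, PRR34-AS1 and ENSG00000273289 on chromosome 22. Starts on both strands were found in 114 peaks, of which 70 were divergent, with a median of 192 bases between the closest opposite starts. Of the 1010 genes, 482 had a symbol and 528 had only an ENSG identifier.

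Near-identical copies elsewhere in the genome were more frequent at lncRNA-start peaks than in either comparison group. The first comparison group was 9024 peaks of at most 5000 bases over coding starts with no lncRNA start, termed coding-only start peaks. The second was 13490 peaks of at most 5000 bases with no annotated lncRNA or other non-coding start that also lay more than 3000 bases from coding starts, termed peaks without a start. A copy was counted when at least 80% of the peak matched another place in hg38 at 95% identity or more. By this definition 154 of 932 lncRNA-start peaks had a copy (16.5%, 95% Wilson interval 14.3 to 19.04), against 155 of 9024 coding-only start peaks (1.72%, 1.47 to 2.01) and 595 of 13490 peaks without a start (4.41%, 4.08 to 4.77). Peaks without a start held no pseudogene start by definition. In contrast, 134 lncRNA-start peaks held a start of another gene type, 69 of them that of a transcribed unprocessed pseudogene. The part of this in the difference was not tested. Intervals here and below cover counting only, since the peaks of 1 list are not replicates. Reads that do not differ between such copies can be placed at either locus, so the position of these 154 peaks may be uncertain. No reads were examined. Whether that bears on any one peak was not tested.

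**Figure D1:**
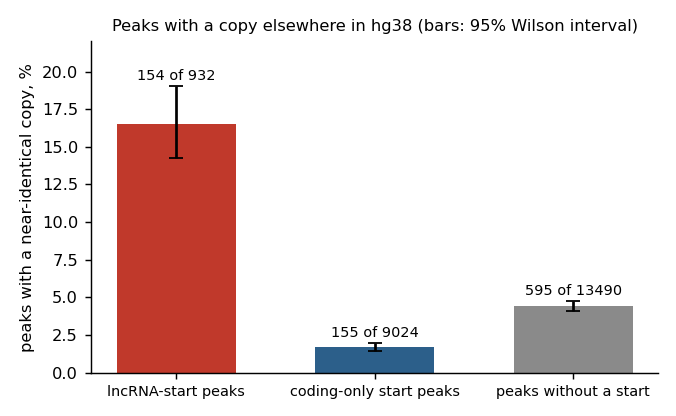
Share of peaks with a near-identical copy elsewhere in hg38, in percent, for lncRNA-start peaks, coding-only start peaks and peaks without a start; bars over the columns are 95% Wilson intervals and the counts stand above them. The share was 16.5% at lncRNA-start peaks, 1.72% at coding-only start peaks and 4.41% at peaks without a start.

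The copies gathered on certain chromosomes. On chromosome 15, 19 of 46 lncRNA-start peaks had one, on chromosome 21 it was 11 of 27 and on chromosome 7 it was 17 of 62, whereas none of 28 on chromosome 4 and none of 31 on chromosome 19 did. These chromosomes were singled out after their values were seen. The 5 CYTOR peaks and the 3 peaks of MIR4435-2HG, a sister locus on the same chromosome, were all among them, as were the 3 peaks of ENSG00000285756 on chromosome X. A total of 144 of the 1010 genes (14.3%) carry GENCODE's tag for overlap with a pseudogene, against 829 of all 18866 lncRNA genes (4.39%). Such a gene started in 72 of the 154 peaks with a copy (46.8%) and in 68 of the 778 without (8.74%).

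By the rule, all these peaks lie over 3 kb from coding starts, but how far was left free. The median distance to the nearest coding start was 30922.5 bases (95% interval 27820 to 34191), against 22084 bases for peaks without a start (21426 to 22700). More than 100 kb separated 204 lncRNA-start peaks (21.9%, 19.4 to 24.7) from any coding start, against 17.0% (16.3 to 17.6) of peaks without a start. The 10 farthest peaks included 8 on chromosome 21, at 3.09 to 5.02 Mb from the nearest coding start, with widths of 410 to 2100 bases. They belonged to LINC01670 and 8 genes without a symbol, and all 8 had a near-identical copy. The other two were LSP1P5 on chromosome 2 at 2926721 bases and MIR924HG on chromosome 18 at 2154944 bases.

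**Figure D2:**
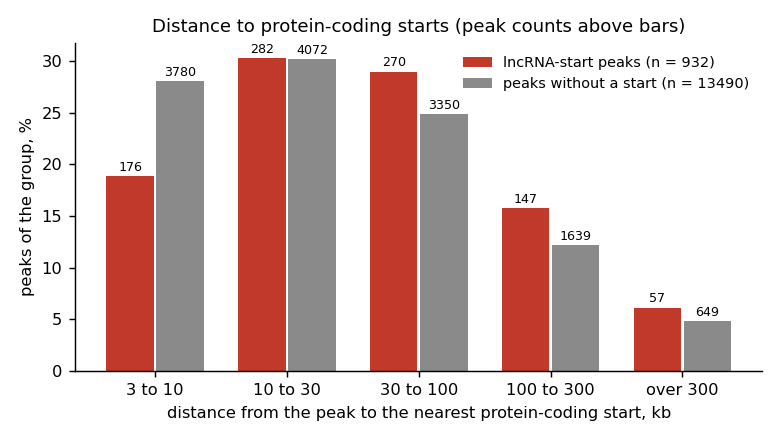
Distance from the peak to the nearest protein-coding start in 5 ranges of kb (horizontal axis) against the percent of each group (vertical axis), for lncRNA-start peaks and peaks without a start, with peak counts above the bars. Of lncRNA-start peaks, 176 lay at 3 to 10 kb, 282 at 10 to 30 kb, 270 at 30 to 100 kb, 147 at 100 to 300 kb and 57 beyond.

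The position relative to coding genes also differed. The midpoint of 117 lncRNA-start peaks lay within a protein-coding gene (12.6%, 10.6 to 14.8), whereas 54.4% (53.6 to 55.3) of peaks without a start did. The rule ties lncRNA-start peaks to places where lncRNA starts are annotated. The share of all distant lncRNA starts inside coding genes was not computed, so this difference cannot be told apart from the annotation. The share at lncRNA-start peaks was 19.96% (17.5 to 22.7) when GENCODE's basic transcripts alone were used. Counted by gene and peak, 955 of 1077 pairs lay outside coding genes, 89 were antisense to the coding gene around them, 29 were on its strand and 4 lay in coding genes of both strands. KCNQ1OT1, the imprinted antisense transcript of KCNQ1, was one of the antisense pairs, with a 1770 base peak 76555 bases from the nearest coding start. EPB41L4A-AS1, a snoRNA host, started in a peak of 850 bases within EPB41L4A.

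The nearest coding gene itself had a peak over a start at 638 lncRNA-start peaks (68.5%, 65.4 to 71.4). Among peaks without a start this share was 79.6% (79.0 to 80.3), and of all protein-coding genes 11667 of 20046 had such a peak (58.2%). The 932 peaks were nearest to 761 different coding genes. A set of 22 coding genes was chosen with earlier results of these data known. A gene of this set was the nearest coding gene at 5 of 932 lncRNA-start peaks (0.536%). The same held for 86 of 13490 peaks without a start (0.638%), a similar share. The 5 peaks were nearest to FOS, TFAP2A or NR4A2, and none was nearest to any other gene of the set. LINC01220 started in a peak of 3480 bases that lay 13238 bases from a FOS start. ENSG00000258820 and ENSG00000289340 shared a peak of 2670 bases 18216 bases from FOS, which encodes a subunit of AP1. At TFAP2A, a neural crest transcription factor, LINC00518 and MIR5689HG shared a peak of 2460 bases at a distance of 13692, and ENSG00000228478 and ENSG00000285759 a peak of 2440 bases at 5782. Both lay in 1 chain of 13 peaks, a chain being a run of deposited peaks joined across gaps up to the stitching distance that the study used for enhancer regions. ENSG00000282440 started in a peak of 1240 bases that lay 7455 bases from NR4A2, which encodes an orphan nuclear receptor.

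Width was bounded by the rule and is given as a description. The median width was 1370 bases (1290 to 1430; quartiles 877.5 and 2062.5), beside 1440 for coding-only start peaks and 760 for peaks without a start. A wider peak is more likely to contain a start, so selection alone favours wider peaks in the groups with starts. Just inside the limit were the peaks of CYTOR with NCAL1 (4950 bases), LINC00880 (4800) and ENSG00000226455 (4770). Just outside were those of LINC00461 with MEF2C-AS2 (5040), ENSG00000237477 (5110) and MIR4435-2HG (5150). A total of 53 wider peaks met the rest of the rule, the widest being 25790 bases at LINC-PINT and LINC00513. NEAT1, the scaffold of nuclear paraspeckles, was left out by the limit with a peak of 15430 bases, and the canonical MALAT1 start likewise, with a peak of 8320 bases. At the distance limit, ENSG00000260086 (3033 bases), ZBTB7C-AS1 (3071) and BCAN-AS2 (3082) were just inside, and LINC02934 (2984), LINC02993 (2964) and ENSG00000276649 (2947) just outside.

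Among the 10 widest lncRNA-start peaks, 6 belonged to named genes, these being CYTOR, LINC00880, MALAT1 with its antisense partner TALAM1 (4650 bases), LINC02298 (4640), LINC03042 (4610) and LNCTSI (4580). The other four, ENSG00000226455, ENSG00000260563, ENSG00000225775 and ENSG00000272449, measured 4770, 4750, 4710 and 4630 bases. Neighbouring peaks differed widely among these 10, from chains of 2 peaks at LINC00880 and LINC02298 to 15 at CYTOR and 26 at ENSG00000260563.

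Peaks reached farther into the transcribed side than upstream, by less than at coding starts. For each gene and peak 1 start was used, that of the canonical transcript where it lay inside the peak (844 of 1077) and otherwise the most upstream start inside. The median reach was 720 bases downstream (683 to 758) and 615 upstream (580 to 664), with a median difference of 123 bases (67 to 157), and 56.8% of starts (53.8 to 59.8) had the longer side downstream. At 10614 coding starts the median difference was 225 bases (213 to 241), with 65.2% (64.2 to 66.1) longer downstream. Coding-only start peaks hold no lncRNA start by definition, whereas 114 lncRNA-start peaks held lncRNA starts on both strands. The part of this and of the choice of start in the difference from coding starts was not tested. Individual starts ranged widely. MIR100HG had 17 bases upstream and 2642 downstream, MIR181A2HG started on the first base of its peak, and the peak of CYTOR at its start 87487502 reached 2461 bases upstream and 28 downstream.

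**Figure D3:**
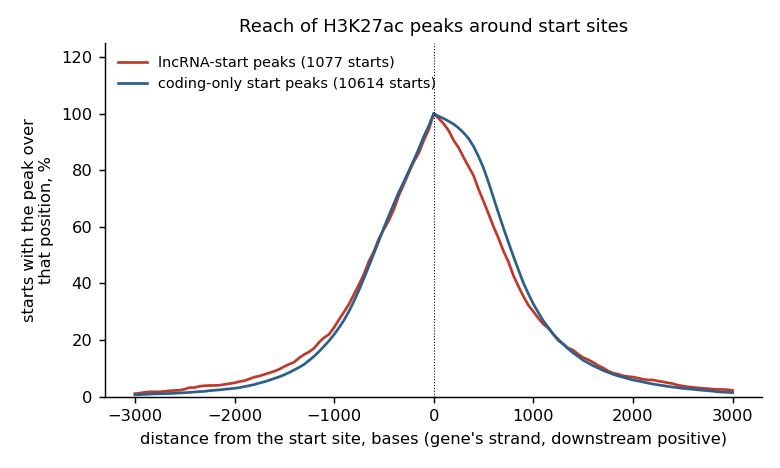
Percent of start sites whose peak covers a given position (vertical axis) against distance from the start in bases on the strand of the gene (horizontal axis, downstream positive), for 1077 starts in lncRNA-start peaks and 10614 coding starts in coding-only start peaks. Both lines are at 100% at the start by construction, and the coding line stands higher over the first kilobase downstream, with median reaches of 795 against 720 bases.

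The sequence of lncRNA-start peaks lay between that of coding promoters and that of peaks without a start. Median GC content was 56.5% (55.5 to 57.4), against 61.3% (61.1 to 61.5) at coding-only start peaks and 48.0% (47.8 to 48.1) at peaks without a start. The ratio of observed to expected CpG, which is high in CpG islands, had a median of 0.559 (0.524 to 0.590), against 0.728 and 0.263. Rather than holding 1 middle value, lncRNA-start peaks spread over both ranges. The ratio exceeded 0.6 in 421 peaks (45.2%, 42.0 to 48.4), against 76.5% (75.7 to 77.4) of coding-only start peaks and 5.89% (5.51 to 6.30) of peaks without a start.

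**Figure D4:**
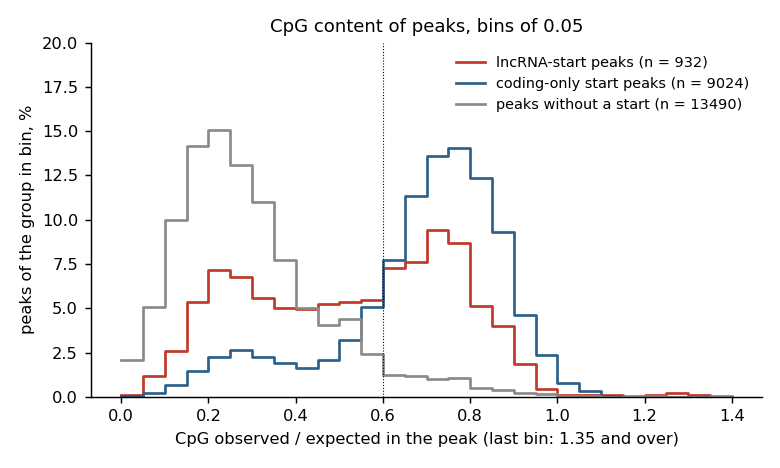
Ratio of observed to expected CpG in the peak (horizontal axis, bins of 0.05) against the percent of each group (vertical axis), for 932 lncRNA-start peaks, 9024 coding-only start peaks and 13490 peaks without a start; the dotted line is at 0.6. The lncRNA-start peaks have one hump on each side of the line, where coding-only start peaks and peaks without a start have their main humps.

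The 421 CpG-rich and 511 CpG-poor peaks differed in further features. This division was chosen after values were seen. CpG-poor peaks had a median width of 1500 bases (1390 to 1610) and CpG-rich peaks 1250 (1160 to 1360). A chain with at least 1 other deposited peak held 68.1% of CpG-poor peaks and 36.3% of CpG-rich peaks, and another peak lay within 1 kb of 34.8% and 7.84%. Starts on both strands occurred in 20.2% (16.6 to 24.3) of CpG-rich and 5.68% (3.98 to 8.03) of CpG-poor peaks. A near-identical copy was found for 24.9% of CpG-rich and 9.59% of CpG-poor peaks. The share of genes with a symbol was 48.9% (44.6 to 53.2) and 47.3% (43.0 to 51.7), with overlapping intervals. Over all lncRNA-start peaks, 501 (53.8%, 50.5 to 56.9) were in such a chain, against 45.9% (44.9 to 46.9) of coding-only start peaks and 73.8% (73.0 to 74.5) of peaks without a start. Width, chains and near neighbours differed by CpG class in coding-only start peaks too. There, CpG-poor and CpG-rich peaks had median widths of 1630 and 1410 bases. Chains held 71.0% and 38.2% of them, and another peak lay within 1 kb of 34.7% and 11.9%. These differences were therefore not particular to lncRNA-start peaks. The share with a copy was 1.61% and 1.75% in coding-only start peaks.

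TGACGTCA occurred in 29 of the 1077 start windows (2.69%, 1.88 to 3.84). It occurred in 3.15% (2.83 to 3.50) of coding starts in coding-only start peaks and in 2.69% of all coding genes. Of 12150 lncRNA genes beyond 3 kb with no peak over a start, 0.403% (0.305 to 0.533) held it, and of all lncRNA genes 0.848%. Median GC content of the same windows was 61.0% at starts in lncRNA-start peaks, 66.0% at coding starts in peaks and 45.7% at lncRNA starts without a peak, and its part in the difference was not tested. The 29 starts came from 21 peaks, because some peaks held the site at starts on both strands. Occurrences were counted in each window. Since the site is a palindrome, a site between opposite starts was counted once for each start, as at LINC01409 and ENSG00000291215. Distinct sites are therefore fewer than occurrences, and the positions are not independent. Of the 32 occurrences so counted, 25 began 1 to 130 bases before the start, and the median position was 60 bases before it.

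The 21 peaks with the site were also compared with all lncRNA-start peaks in features found after their values were seen. In 13 of them (61.9%) a gene overlapped a pseudogene, against 15.0% of all lncRNA-start peaks. Of these 13, 8 had a near-identical copy (38.1% of the 21, against 16.5% of all). Starts on both strands were present in 9 (42.9%, against 12.2% of all). Chromosome 7 held 8 of the 21, at STAG3L5P-PVRIG2P-PILRB, STAG3L4 with PMS2P4, GTF2IRD1P1 with ENSG00000289177, LINC00174 with LINC03011, LINC03006 and 3 loci without a symbol. PVT1, the neighbour of MYC, held the site 41 bases before the start of its peak of 3670 bases, and like HCG14, LIPE-AS1 and ENTPD3-AS1 it had neither a pseudogene overlap nor a copy. Without the peaks that had a copy, the share of starts with the site was 1.92%.

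Other promoter sequences were searched in the same windows on both strands. GGGCGG, the core of GC boxes, was found at 49.5% (46.5 to 52.5) of starts in lncRNA-start peaks, 71.7% of coding starts in peaks and 10.9% of lncRNA starts without a peak. The ETS-type sequence CCGGAAG was found at 10.6% (8.89 to 12.6), 19.1% and 2.61%, and CGCATGCG, part of the site of NRF1, at 3.44% (2.50 to 4.70), 4.02% and 0.354%. CCAAT was found at 29.7% (27.1 to 32.5), 34.2% and 37.7%. TATAAA at 40 to 20 bases before the start on the strand of the gene was rare in all sets, at 0.836%, 1.03% and 1.25%. TGANNTCA, which includes TGACGTCA, was found at 12.53% (10.7 to 14.6) of starts in lncRNA-start peaks, 7.65% of coding starts in peaks and 16.3% of lncRNA starts without a peak. Over all 18866 lncRNA and all 20046 coding genes, GGGCGG was found at 22.7% and 61.3% of starts, CCGGAAG at 4.97% and 14.1%, CGCATGCG at 0.954% and 2.83%, CCAAT at 35.3% and 36.1%, TATAAA at 0.991% and 3.84% and TGANNTCA at 14.5% and 9.94%.

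The AP1 site TGAGTCA was found at 78 of 1077 starts (7.24%, 5.84 to 8.95), against 2.80% (2.50 to 3.13) of coding starts in peaks and 6.61% (6.18 to 7.06) of lncRNA starts without a peak, and 5.79% of all lncRNA and 3.57% of all coding genes. Over whole peaks it occurred 205.8 times per Mb in lncRNA-start peaks, 106.8 in coding-only start peaks and 186.9 in peaks without a start. By CpG class, it stood at 11.6% (9.22 to 14.6) of starts in CpG-poor and 2.66% (1.59 to 4.41) of starts in CpG-rich lncRNA-start peaks, while TGACGTCA stood at 1.27% (0.618 to 2.60) and 4.17% (2.77 to 6.24). Over whole CpG-poor peaks TGAGTCA occurred 264.2 times per Mb, against 170.4 in CpG-poor coding-only start peaks and 190.8 in CpG-poor peaks without a start. TCATGTG, bound by MITF and related factors, was found at 2.23% of starts in lncRNA-start peaks, 1.53% of coding starts in peaks and 4.95% of lncRNA starts without a peak, and at 4.24% of all lncRNA and 2.12% of all coding genes. The part of base composition in these differences was not tested.

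Genes were next counted by name. A deposited peak of any width lay over a start of 3591 of 18866 lncRNA genes (19%). Of the 13213 with every start more than 3 kb from coding starts, 1063 had such a peak (8.05%). Host names (SNHG, or MIR with HG) were called in 40 of 84 such genes (47.6%, 37.3 to 58.2), other symbols in 24.4% (21.2 to 28.0), intergenic names (LINC) in 11.02% (9.76 to 12.4), antisense names in 8.45% (6.56 to 10.8) and genes without a symbol in 6.01% (5.55 to 6.50). Of these distant genes, 958 had a lncRNA-start peak. Their canonical transcripts had a median of 3 exons, 1205.5 exonic bases (1134 to 1321) and a span of 12707.5 bases (10397 to 14612). The 12150 without a peak had 2 exons, 778 exonic bases (763 to 792) and a span of 6911.5 bases (6660 to 7196). Annotation depth differed as well. The 958 genes had a median of 2 annotated transcripts, and 40.2% had only 1, against a median of 1 and 69.5% without a peak. A gene was called when any of its starts lay in a peak, so more annotated transcripts gave more chances. The part of this in the differences by name, gene list and gene model was not tested. The gene lists below were chosen with earlier results of these data known.

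**Figure D5:**
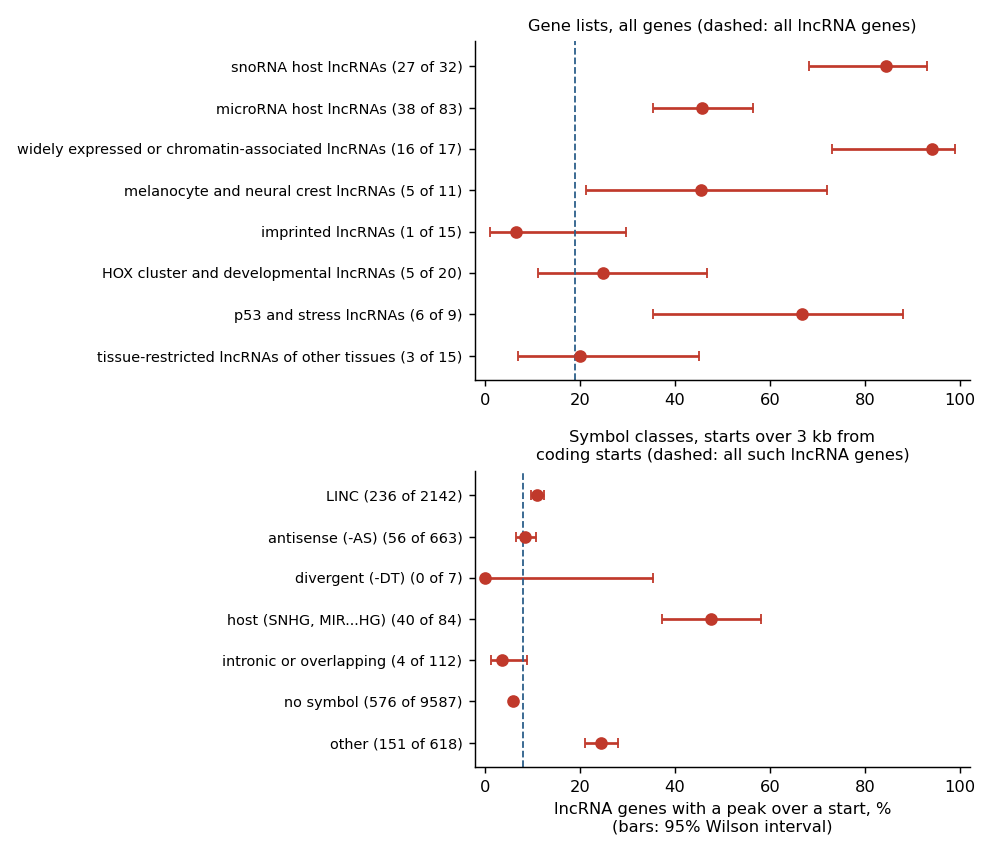
Percent of lncRNA genes with a peak over a start (horizontal axis) for 8 gene lists (upper panel, all genes) and 7 classes of gene names (lower panel, genes with every start more than 3 kb from coding starts); points are shares, bars 95% Wilson intervals, and dashed lines the shares of all such lncRNA genes, 19% and 8.05%. The intervals of the snoRNA host, microRNA host, widely expressed, melanocyte and p53 lists lie above the dashed line, and those of the imprinted, HOX and other-tissue lists cross it.

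The snoRNA hosts, whose spliced introns are processed into snoRNAs that guide modification of ribosomal RNA, were called in 27 of 32 genes (84.4%, 68.2 to 93.1), against 19% of all lncRNA genes. Of the 17 hosts with every start more than 3 kb from coding starts, 14 were called, against 8.05% of all such lncRNA genes. In 14 the peak was a lncRNA-start peak, whereas GAS5, SNHG1 and ZFAS1 were called with peaks outside the rule and had starts 87, 51 and 113 bases from a coding start. The 14 had peaks of 740 bases at SNHG12, 840 at SNHG29, 850 at EPB41L4A-AS1, 920 at SNHG11, 940 at DANCR, 1020 at SNHG21, 1050 at SNHG30, 1120 at SNHG16, 1210 at SNHG17, 1860 at SNHG6, 2040 at SNHG8, 2420 at SNHG7, 3600 at SNHG32 and 4480 at SNHG26. SNHG14, SNHG15, SNHG20, SNHG25 and SNHG27 were not called.

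The microRNA hosts were called in 38 of 83 genes (45.8%, 35.5 to 56.5), and in 28 of the 69 with every start more than 3 kb from coding starts. Of all lncRNA genes 19% were called, and of all those with every start that far 8.05%. Of the 38, 25 had a lncRNA-start peak. The next lines give mature microRNAs encoded within lncRNA genes with such a peak, to show which seed families these genes hold. Sequences and positions are those of RefSeq (GRCh38.p14), and capitals mark the seed, bases 2 to 8. H3K27ac at the start does not measure the microRNA.
hsa-let-7a-5p in MIRLET7A1HG, chr9:94175962-94175983, plus strand: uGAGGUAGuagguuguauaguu
hsa-let-7b-5p in MIRLET7BHG, chr22:46113691-46113712, plus strand: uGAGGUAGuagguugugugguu
hsa-let-7c-5p in MIR99AHG, chr21:16539838-16539859, plus strand: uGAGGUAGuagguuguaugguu
hsa-let-7i-5p in MIRLET7IHG, chr12:62603691-62603712, plus strand: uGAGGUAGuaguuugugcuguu
hsa-miR-29a-3p in LINC-PINT, chr7:130876748-130876769, minus strand: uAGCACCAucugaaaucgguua
hsa-miR-29c-3p in MIR29B2CHG, chr1:207801865-207801886, minus strand: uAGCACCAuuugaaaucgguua
hsa-miR-15a-5p in DLEU2, chr13:50049167-50049188, minus strand: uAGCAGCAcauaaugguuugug
hsa-miR-16-5p in DLEU2, chr13:50049027-50049048, minus strand: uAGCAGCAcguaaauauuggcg
hsa-miR-17-5p in MIR17HG, chr13:91350618-91350640, plus strand: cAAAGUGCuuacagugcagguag
hsa-miR-20a-5p in MIR17HG, chr13:91351072-91351094, plus strand: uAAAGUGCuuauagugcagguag
hsa-miR-100-5p in MIR100HG, chr11:122152275-122152296, minus strand: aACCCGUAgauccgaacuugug
hsa-miR-99a-5p in MIR99AHG, chr21:16539101-16539122, plus strand: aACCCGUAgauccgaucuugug
hsa-miR-221-3p in MIR222HG, chrX:45746180-45746202, minus strand: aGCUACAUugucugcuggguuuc
hsa-miR-222-3p in MIR222HG, chrX:45747036-45747056, minus strand: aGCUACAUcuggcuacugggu
hsa-miR-31-5p in MIR31HG, chr9:21512158-21512178, minus strand: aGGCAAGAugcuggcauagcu
The let-7 seed GAGGUAG lay downstream of marked starts on chromosomes 9, 12, 21 and 22. MIR100HG on chromosome 11 also encodes let-7a-5p, but its lncRNA-start peak held an internal start at 122102203 that lies downstream of miR-100-5p on the minus strand, so that start does not lead into it. The AGCACCA seed of miR-29 was found in LINC-PINT and MIR29B2CHG, the AGCAGCA seed of miR-15 and miR-16 in DLEU2, and AAAGUGC in MIR17HG. Peak widths were 2060 bases at MIRLET7A1HG, 2420 at MIRLET7IHG, 1160 at MIR29B2CHG, 2410 at MIR17HG, 530 at MIR222HG and 700 at MIR31HG. MIRLET7BHG had 2 peaks of 3660 and 3070 bases in 1 chain of 12, MIR99AHG 2 of 4070 and 1850 bases, and DLEU2 2 of 1360 and 3720 bases. The peak of MIR17HG, the host of an oncogenic cluster, stood alone, with the nearest other deposited peak 1877510 bases away. MIR34AHG, which encodes the p53-induced miR-34a, had a peak of 1890 bases, and MIR210HG, known for induction in hypoxia, one of 2090.

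Widely expressed or chromatin-associated lncRNAs were called in 16 of 17 genes (94.1%, 73.0 to 99.0), MIAT being the exception, and 12 had a lncRNA-start peak. Of the 11 with every start more than 3 kb from coding starts, 10 were called. The shares of all lncRNA genes and of all such distant ones were 19% and 8.05%. NORAD, which binds Pumilio proteins, had a peak of 1320 bases, and TERC, the RNA template of telomerase, one of 1630 bases that lay 3781 bases from the nearest coding start. On chromosome X, JPX had a peak of 1010 bases, FTX one of 2970 and FIRRE 2 of 1610 and 750. MALAT1 had 2 lncRNA-start peaks at internal starts, of 400 and 4650 bases, in a chain of 10. DLEU1 and DLEU2 had separate peaks of 950 and 1360 bases with a gap of 230 bases, each over the start of 1 annotated transcript, on opposite strands. DLEU1 had a further lncRNA-start peak of 1730 bases. The other peak of DLEU2, of 3720 bases, held the starts of 5 transcripts of DLEU2 and ENSG00000274270.

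Of 11 lncRNAs linked to melanocytes, melanoma or the neural crest, 5 were called (45.5%, 21.3 to 72.0), all with lncRNA-start peaks. With the widest 50% of peaks the count was 3, and the lower end of the interval lay close to the 19% of all lncRNA genes. Of the 10 with every start more than 3 kb from coding starts, 4 were called, against 8.05% of all such lncRNA genes. UCA1 had 2 lncRNA-start peaks, of 3250 and 3010 bases in a chain of 4 peaks. The others were LINC00518 (2460 bases), SPRY4-AS1 (870), DIRC3 (830) and MIR31HG. No deposited peak lay over a start of SAMMSON, a lncRNA of the MITF locus in melanoma, nor of BANCR, CASC15, LINC00520, LINC01638 or NBAT1. A missing call means that no start lay in a listed peak, not that the mark was absent.

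Among p53 and stress lncRNAs, 6 of 9 were called (66.7%, 35.4 to 87.9), with lncRNA-start peaks at MIR34AHG, LINC-PINT (2490 bases) and LINC00467 (1020 bases). Imprinted lncRNAs were called in 1 of 15 genes (6.67%, 1.19 to 29.8), KCNQ1OT1, while H19, MEG3 and AIRN were among those not called. HOX cluster and developmental lncRNAs were called in 5 of 20 (25%, 11.2 to 46.9), namely HOTAIR, HOXC-AS1, HOXC-AS2, HOXC-AS3 and SOX2-OT, and none had a lncRNA-start peak. All but 2 of the 20 had a start at most 3 kb from a coding start, so the rule left little room for such a peak. LncRNAs restricted to other tissues were called in 3 of 15 (20%, 7.05 to 45.2), namely CARMN, HULC and MYOSLID, again with no lncRNA-start peak. The intervals of the last 3 lists include the 19% of all lncRNA genes, a share over genes both near to and far from coding starts. Of genes with every start more than 3 kb from coding starts, 8.05% were called. Among such genes the counts were 3 of 5 in the p53 list and 1 of 9 in the imprinted list. They were 0 of 2 in the HOX list and 0 of 12 in the other-tissue list.

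Several lncRNA genes had more than 1 lncRNA-start peak. Of the 1010 genes, 963 had 1 lncRNA-start peak, 37 had 2, 7 had 3, CYTOR had 5, and LINC00511 and PVT1 had 7 each. The 7 of LINC00511, over a gene of 350.4 kb on chromosome 17, measured 480 to 4120 bases and 1 of them was CpG-rich. The 7 of PVT1, over 392.6 kb on chromosome 8, measured 530 to 3670 bases and lay 54798 to 309878 bases from MYC, and none was CpG-rich. The 5 of CYTOR measured 4950, 2430, 2490, 2420 and 1090 bases, and 4 of them were in 1 chain of 15 peaks. All 5, like the 3 of MIR4435-2HG, had a near-identical copy elsewhere in hg38, so their position may be uncertain. LINC01588 on chromosome 14 had 3 peaks of 1430, 3480 and 2450 bases, and LINC00963 on chromosome 9 had 3 of 2060, 3570 and 1320 bases. The other genes with 3 were LINC01198, MIR4435-2HG, MUC20-OT1, ENSG00000279277 and ENSG00000285756. The 3 peaks of ENSG00000285756 were alike, at 1490, 1410 and 1350 bases with CpG ratios of 0.823 to 0.827, and each had a near-identical copy. Deposited peaks anywhere over the gene numbered 32 at PVT1, 19 at LINC00511, 18 at CYTOR and 23 each at MIR4435-2HG and LINC01588. They numbered 11 at MUC20-OT1, 4 at LINC00963 and 3 each at LINC01198, ENSG00000279277 and ENSG00000285756. Long genes with many annotated starts have more chances to hold such peaks, and the part of this was not tested.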

How the data were processed

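ChIP-seq for H3K27ac (3 replicates, with 3 inputs) was done in SU-CCS-1. Reads were aligned by the authors (BWA 0.7.10-r789, hg38), who then removed duplicates, called broad peaks with MACS2 (2.2.6) against input and removed deny-listed regions. They deposited 1 list of 4 columns with the position and name of each peak. The values are other than counts or signal, so no depth, score or replicate value could be used, and whether replicates were joined before or after calling is not given in the sources used here. Broad calling joins neighbouring stretches, so width depends on both signal height and how far the mark extends.

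Starts were taken from GENCODE version 44, sequence from hg38, and copies were sought with minimap2 2.31 (at least 95% identity over 80% of the peak). Python 3.11.15, pandas 2.3.3, scipy 1.17.1 and pysam 0.24.0 were used. Chains of peaks were stitched at 12.5 kb, as in the study. Groups came from the sample titles. No test was run, since peaks of 1 list are not replicates, and shares and medians carry 95% Wilson or order-statistic intervals. The functions were tested on simulated data. The peaks and gene lists were chosen with earlier results of these data known. Of the listed symbols, 11 matched no lncRNA gene. Named genes were those of the lists, the 10 widest and 10 farthest peaks, 3 on each side of each limit, genes with 3 or more peaks, peaks with 3 or more genes (those with 4 are given), starts with TGACGTCA and neighbours of chosen coding genes.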

Additional observations from a re-analysis of the deposited data

How the results depend on the processing

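No paired analysis was possible because the deposited list holds no column for any replicate, and for the same reason no replicate could be left out. Of 112 recalculations, 89 stayed within 1.5 times the main count or within the interval of the main value, and 23 moved. A reversal could be recorded only for the downstream minus upstream reach, where 0 of 11 recalculations reversed. The number of lncRNA-start peaks stayed between 756 and 993 except with the widest 50% of all peaks (613). The share inside coding genes was 19.96% with basic transcripts, 16.2% with protein_coding transcripts only, and 15.1% or 9.26% at a coding distance of 1000 or 10000 bases. Median GC content was 55.4% at 10000 bases, 57.6% with a width limit of 2500, 55.2% in the widest 50% and 55.2% without near-identical copies. The stitched share under these 4 settings was 49.6%, 50.1%, 57.4% and 58.1%, and it was 39.4% and 67.8% when stitching at 5 and 25 kb. Median width was 1210 bases with a limit of 2500 and 1440 with starts 100 bases inside the edges. The downstream minus upstream reach was 165 bases with the most upstream start. TGACGTCA was found for 4.55% of starts over the whole peak. The share of distant lncRNA genes called was 10.1% within 500 bases of a peak, 5.74% with the widest 50% and 7.45% with peaks of at most 5000 bases. The melanocyte list had 3 genes called with the widest 50%. Leaving out copies, and all alternatives for gene lists, were added after seeing the data.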
